A study of Homo sapiens with 6 samples.

Results

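The transcripts described here encode the mitochondrial carrier family and the machinery that brings proteins into mitochondria. They were taken from an array table of 37879 targets as every target whose symbol begins with SLC25A, TIMM or TOMM, which gave 61 genes, 42 of them SLC25A carriers, 11 TIMM genes and 8 TOMM genes. The samples were immunoprecipitates (IPs) from HEK293T cells, a human embryonic kidney line, held in prometaphase with nocodazole at 50 ng/ml. The treatment lasted 15 h by the sample labels, while the study's methods give a longer time for these cells. For 3 Stau1 IPs the cells had received a plasmid for Stau155-FLAG, the shorter Staufen1 isoform with a FLAG tag, and for 3 control IPs the empty vector. Both kinds of lysate went through the same anti-FLAG precipitation, so the control IP holds RNA that came down without tagged protein, and the RNA in the pellets was read on Illumina bead arrays, 1 array per IP. Stau1 in this design was a transfected, tagged protein in cells that keep their own Stau1, and the labels do not say whether the IPs came from separate cultures, so each p-value below measures the spread between these arrays, which may be technical.

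Staufen1 binds double-stranded stretches of RNA and takes part in transport, translation and decay of messenger RNAs. Nearly all mitochondrial proteins are made in the cytosol. The TOM complex takes them through the outer membrane, small TIM chaperones carry hydrophobic ones across the intermembrane space, the TIM22 complex inserts carriers into the inner membrane, and the TIM23 complex leads proteins with a presequence into the matrix. SLC25A carriers are among the substrates of the TIM22 route, and once inserted they exchange nucleotides, amino acids, organic acids, phosphate and cofactors across the inner membrane. A signal that is higher in the Stau1 IP than in the control IP is the measure by which an mRNA was scored as bound in this study. Input RNA was not analysed here, so from the IP arrays alone a difference between the IPs cannot be told apart from a difference in the amount of that mRNA in the cells. The study also compared total RNA of such cells on arrays and reported that very few probes changed with Stau155-FLAG. Its input values for the genes described here were not examined.

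By the labels, 0 of the 61 transcripts passed the study's rule of a fold above 2.5 with an unadjusted p under 0.05, in either direction, against 0.00264% of all targets higher and 0% lower. The study reported far more transcripts as enriched by this rule, and the labelled comparison here did not reproduce that number. Why they differ was not tested. SLC25A15, the mitochondrial ornithine carrier of the urea cycle, had the largest log2 difference, 1.01, but with a standard error (SE) of 0.85. Its signal was high on 3 arrays and low on 3, and the array labelled Stau1 IP 2 was among the low ones while control IP 2 was among the high ones. Without the pair of arrays numbered 2, SLC25A15 was 5.27-fold higher in the Stau1 IP and was 1 of 10 transcripts past an adjusted p of 0.05, with 8 other carriers and TOMM22. These were 16.4% of the 61, against 3.17% of all targets, or 23.3% of the 43 with a mean normalized log2 value of at least 8, against 10.9% of targets as bright. TOMM5 and TIMM8B, a small TOM subunit and a small TIM chaperone, passed in the other direction, 3.28% against 2.25% of all targets.

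The position of the arrays numbered 2 has to be given first, because most of the values turn on it. Over the 9884 targets detected on every array, the normalized values of Stau1 IP arrays 1 and 3 correlated at 0.9964. Stau1 IP 2 correlated with them at 0.9404 and 0.9432, and with control IP 1, 2 and 3 at 0.9617, 0.9538 and 0.9766. Control IP 2 correlated with Stau1 IP arrays 1 and 3 at 0.9827 and 0.9839, above its 0.977 and 0.9821 with control IP arrays 1 and 3. Targets share their array and its brightness, so these correlations are a description. Whether the labels of these 2 arrays were exchanged was not tested. They were kept in their labelled groups, and their values are given singly. Each comparison was also fitted with both left out (control IP 1 and 3 against Stau1 IP 1 and 3), a choice made with this pattern known. For these fits the values had first been normalized over all 6 arrays, in the main processing with control IP 2 as the reference. The 2 arrays thus still had a part in those values. Among the 43 transcripts with a mean normalized log2 value of at least 8 over the 6 arrays, control IP 2 lay nearer to the mean of Stau1 IP 1 and 3 for 22 (51.2%, against 46.9% of the 8856 targets this bright), and Stau1 IP 2 lay nearer to the mean of control IP 1 and 3 for 27 (62.8%, against 60.4%). Both held for 18 (41.9%, against 36.2%).

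The 6 arrays were alike in overall brightness, with median signals between 87.9 and 102 and between 11635 and 13054 targets detected (detection p under 0.05). STAU1 itself, whose plasmid copy only the Stau1 IP cells received, was not higher by the labels, with a log2 difference of -0.15 (SE 0.16, adjusted p = 0.879 in limma), and 0.06 without the arrays numbered 2. The part of the mRNA that its probes read was not checked, so this says nothing of the labels. Of the markers expected in HEK293T cells, VIM, KRT8 and KRT18 were detected on 6 arrays, while PAX2, a kidney transcription factor, was detected on 1 of 6. ALB, HBB, CD3E and PTPRC, which mark liver, red blood cells, T cells and leukocytes, were detected on none. The mitotic genes AURKA, CCNB1, CDC20 and PLK1 were detected on 6 of 6.

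Of the 61 transcripts, 51 were detected on at least 1 array, 50 on at least 3 and 44 on all 6. On the control IP arrays 51, 50 and 49 were detected, and on the Stau1 IP arrays 49, 45 and 49, the lowest on Stau1 IP 2. Those detected on none were SLC25A2, SLC25A18, SLC25A24, SLC25A31, SLC25A32, SLC25A33, SLC25A34, SLC25A41, TIMM13 and TIMM50. Among them are SLC25A31, the ADP/ATP carrier of testis, and TIMM50, the receptor of the TIM23 complex. Their signals, 61.5 to 112, were those of the array background. Signals of different genes are not set against each other, because each probe binds with its own efficiency.

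Across the 61 transcripts the log2 differences by the labels ran from -0.79 to 1.01 with a median of 0.03, and 33 (54.1%) were above 0. Over all targets the median was 0.00 and 51.7% were above 0. The transformation of the signals shrinks differences of dim targets towards 0, so the same was taken over targets with a mean of at least 8. There the median was 0.05 for 43 transcripts, 58.1% above 0, against 0.00 and 49.5% for 8856 targets. Without the arrays numbered 2 these medians were 0.14 and -0.04.

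The share of all targets past an adjusted p of 0.05 was 0% higher and 0.00264% lower, so the labelled comparison called almost nothing anywhere on the array. The lowest adjusted p among the 61 was 0.166, for SLC25A29. At an unadjusted p under 0.05, 8 transcripts were higher (13.1%, against 3.9% of all targets): SLC25A1, SLC25A10, SLC25A25, SLC25A26, SLC25A29, SLC25A35, SLC25A39 and TOMM40L. Over targets with a mean of at least 8 these 8 were 18.6% of 43, against 10.7%. The 4 that were lower (6.56%, against 5.02%) were TIMM8A, TIMM17A, TOMM5 and TOMM7, and over the brighter targets 3 of 43 (6.98%) were lower, against 13.3%.

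All 3 Stau1 IP arrays lay above all 3 control IP arrays for 9 transcripts (14.8%, against 6.67% of all targets), and for 8 of the 43 brighter ones (18.6%, against 10.5%). All 3 lay below for 5 (8.2%, against 7.79%), and for 3 of 43 (6.98%, against 13.9%). The 9 were SLC25A1, SLC25A10, SLC25A25, SLC25A29, SLC25A35, SLC25A39, SLC25A45, TIMM22 and TOMM40L, of which 7 are carriers, as are 42 of the 61 members. The 5 were SLC25A34, TIMM8A, TIMM17A, TOMM5 and TOMM7, of which 4 belong to the import machinery. SLC25A34 was at background on every array.

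With the arrays numbered 2 left out, 1 transcript was called higher at 2.5-fold (1.64%, against 0.602% of all targets), SLC25A15, and 0 lower, against 0.0396%. Leaving out Stau1 IP 2 alone gave the same call, at a log2 difference of 1.80. Past an adjusted p of 0.05, 10 were higher (16.4%, against 3.17%), which among the brighter targets was 23.3% of 43, against 10.9%. In the lower direction 2 passed (3.28%, against 2.25%), among the brighter 4.65%, against 8.97%. Under neqc, a background correction and quantile normalization of limma, the same 4 arrays gave 2 higher past an adjusted p of 0.05, SLC25A15 and SLC25A25 (3.28%, against 0.422% of all targets), and 0 lower (against 0.235%). Both Stau1 IP arrays lay above both control IP arrays for 25 (41%, against 22.2%), and for 21 of the 43 brighter ones (48.8%, against 33.8%). They lay below for 14 (23%, against 24%), and for 10 of the 43 (23.3%, against 37.9%). Of the 25, 19 were carriers, and of the 14, 9 were TIMM or TOMM transcripts. The 61 members hold 42 carriers, 11 TIMM and 8 TOMM genes, and whether these counts depart from that make-up was not tested.

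**Figure D1:**
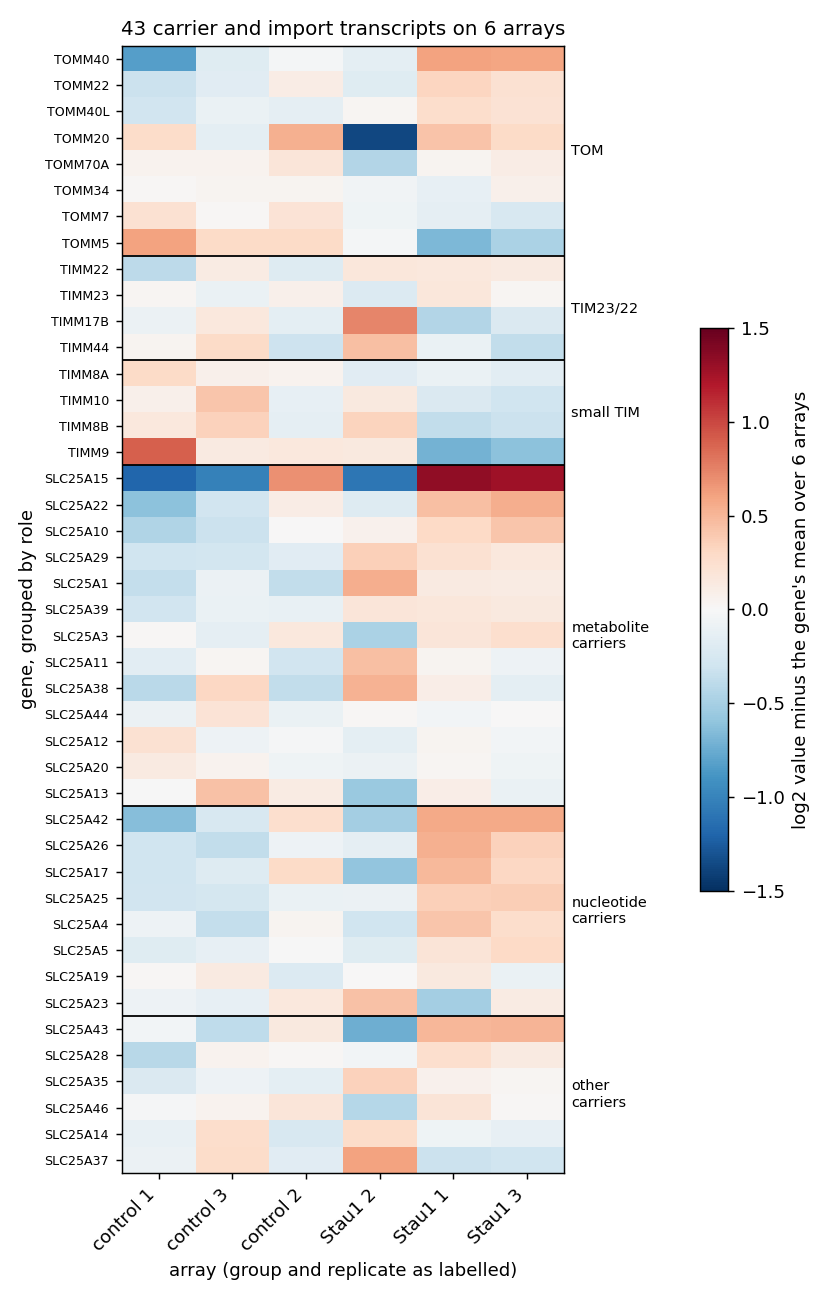
Normalized log2 value minus the gene's mean over 6 arrays (colour scale) for the 43 transcripts with a mean of at least 8. Each row is a gene, grouped by role, and each column an array with its labelled group and replicate number. In the row of SLC25A15, control IP 2 has the colour of Stau1 IP arrays 1 and 3, and Stau1 IP 2 that of control IP arrays 1 and 3.

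In the outer membrane group, 0 of 8 transcripts passed an adjusted p of 0.05 by the labels. Without the arrays numbered 2, 1 was higher past it, TOMM22, and 1 was lower, TOMM5. In that fit 3.17% of all targets were higher and 2.25% lower, or 10.9% and 8.97% of targets with a mean of at least 8. All 8 transcripts of this group were detected on at least 3 arrays. TOMM40 (chromosome 19) encodes the channel. In the order of the replicate numbers, which all values below follow, the deposited signal was 7354, 13861 and 11281 for the control IP. For the Stau1 IP it was 17657, 12440 and 19796. Stau1 IP arrays 1 and 3 stood above the rest, while Stau1 IP 2 was below control IP 2. The log2 difference was 0.70 (SE 0.30, adjusted p = 0.600 in limma) by the labels and 1.10 (SE 0.23, adjusted p = 0.0985) without the arrays numbered 2.

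TOMM22 (chromosome 22) encodes the central receptor. The control IP arrays gave 2361, 3710 and 2732 for it and the Stau1 IP arrays 3884, 2688 and 4036. Again the array labelled Stau1 IP 2 fell among the control IP arrays and control IP 2 lay close below Stau1 IP 1. Its log2 difference of 0.25 (SE 0.17, adjusted p = 0.791 in limma) became 0.52 (SE 0.07, adjusted p = 0.0421) without them. TOMM40L (chromosome 1), a paralog of the channel, had Stau1 IP arrays at 662, 428 and 697 against 365, 523 and 452, and after normalization all 3 lay above the controls. It was detected on 4 of 6 arrays, and its log2 difference was 0.35 (SE 0.08, adjusted p = 0.314 in limma).

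TOMM5 (chromosome 9), a small subunit that stabilizes the complex, went the other way on every array. The control IP signals were 6537, 5683 and 5163 and the Stau1 IP signals 2637, 4200 and 3351. The groups did not overlap, and Stau1 IP 2 lay nearest to the controls. The log2 difference was -0.79 (SE 0.19, adjusted p = 0.317 in limma) by the labels and -1.03 (SE 0.14, adjusted p = 0.0393) without the arrays numbered 2, which is a fold of 2.04. TOMM7 (chromosome 7), another small subunit, had 15010, 15326 and 12233 in the control IP and 10377, 12358 and 10746 in the Stau1 IP. Its groups overlapped in the deposited signal by the values of Stau1 IP 2 and control IP 3 and stood apart after normalization, with a log2 difference of -0.29 (SE 0.07, adjusted p = 0.331 in limma).

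The receptors TOMM20 (chromosome 1), which reads presequences, and TOMM70A (chromosome 3, now TOMM70), which receives carrier precursors, had intervals that include 0 in both fits. TOMM20 gave 3076, 4205 and 2324 in the control IP and 3525, 860 and 3558 in the Stau1 IP. Only Stau1 IP 2 stood apart, below every other array. Its log2 difference was -0.44 (SE 0.52, adjusted p = 0.900 in limma) by the labels and 0.29 (SE 0.16, adjusted p = 0.519) without the arrays numbered 2. With Stau1 IP 2 alone left out it was 0.14. For TOMM70A the values were 2827, 3556 and 2901 against 2932, 1980 and 3393, with log2 differences of -0.19 (95% interval -0.58 to 0.20) by the labels and 0.03 (-0.09 to 0.14) without them. TOMM34, a cytosolic cochaperone, differed by -0.06 (95% interval -0.20 to 0.07).

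**Figure D2:**
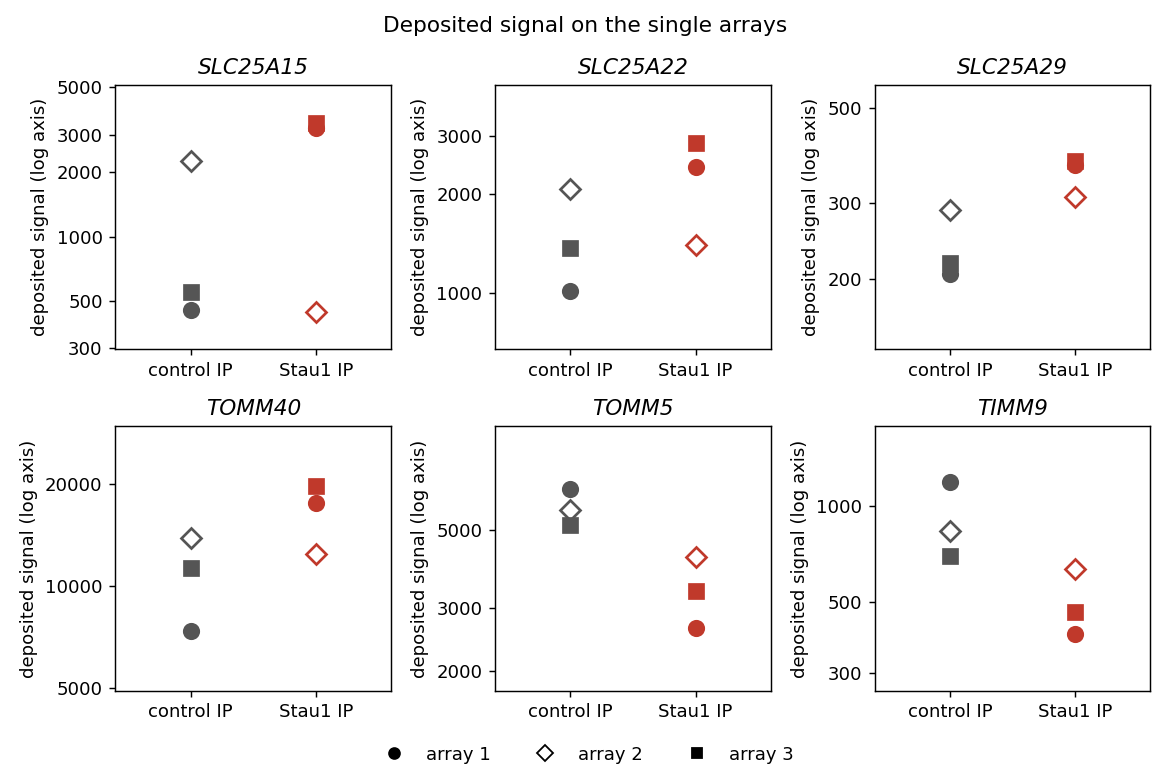
Deposited signal (log axis, arbitrary units) of 6 transcripts on the single arrays. Filled circles are arrays 1, filled squares arrays 3 and open diamonds arrays 2, control IP in grey and Stau1 IP in red. For SLC25A15 the open diamonds, 2259 and 445, lie with the other group, while for TOMM5 every Stau1 IP array lies below every control IP array.

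The inner membrane translocases, 6 transcripts, showed small differences by the labels, from -0.18 to 0.31 with a median of 0.02, and from -0.40 to 0.28 without the arrays numbered 2. TIMM22 (chromosome 17), the channel-forming subunit of the carrier translocase, had 1398, 1932 and 2154 in the control IP and 2276, 2185 and 2457 in the Stau1 IP. All Stau1 IP arrays lay above all controls, the nearest pair by a small margin, and the log2 difference was 0.31 (SE 0.13, adjusted p = 0.604 in limma). TIMM23 (chromosome 10), the channel-forming subunit of the presequence route, gave 2396, 2853 and 2240 against 2786, 2031 and 2793. Its groups overlapped, with a difference of 0.00 (95% interval -0.27 to 0.27) by the labels and 0.14 (-0.08 to 0.35) without the arrays numbered 2. TIMM23 has a near-identical copy in the genome, and whether the probes tell them apart was not tested.

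TIMM44 (chromosome 19), which tethers the import motor to the channel, gave 1304, 1208 and 1646 in the control IP and 1313, 1800 and 1182 in the Stau1 IP. Stau1 IP 2 was the highest array and Stau1 IP 3 the lowest. The log2 difference was -0.01 (SE 0.26, adjusted p = 0.996 in limma), and -0.40 (SE 0.14, adjusted p = 0.263) without the arrays numbered 2. TIMM17B (chromosome X), a TIM23 core subunit, was also highest on Stau1 IP 2, with 3446 against 1530 to 2256 on the others. Its paralog TIMM17A (chromosome 1) was dim, at 162, 164 and 146 against 138, 125 and 154, and differed by -0.18 (SE 0.07, adjusted p = 0.519 in limma). The signals overlapped for TIMM17A and the normalized values did not.

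Of the 5 small TIM chaperones of the intermembrane space, 4 were detected. Without the arrays numbered 2, 1 of them, TIMM8B, was lower past an adjusted p of 0.05. In that fit 2.25% of all targets were lower, or 8.97% of those with a mean of at least 8. By the labels 0 passed. TIMM9 (chromosome 14), which pairs with TIMM10 to escort carriers to TIM22, gave 1184, 834 and 699 in the control IP and 395, 633 and 464 in the Stau1 IP. Every Stau1 IP signal was below every control IP signal, but after normalization Stau1 IP 2 fell just within the control range. The log2 difference was -0.79 (SE 0.32, adjusted p = 0.568 in limma) by the labels and -1.18 (SE 0.27, adjusted p = 0.125) without the arrays numbered 2, a fold of 2.26. TIMM10 (chromosome 11) gave 1608, 1649 and 2160 against 1434, 1725 and 1484, with Stau1 IP arrays 1 and 3 lowest. Its log2 differences were -0.24 (SE 0.18, adjusted p = 0.815 in limma) and -0.50 (SE 0.13, adjusted p = 0.153).

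TIMM8A and TIMM8B, small TIMs of the same family, also had measured signal. TIMM8A (chromosome X), mutated in a deafness and dystonia syndrome, had 372, 395 and 331 in the control IP and 320, 234 and 331 in the Stau1 IP. The normalized values of its groups did not overlap, and the log2 difference was -0.28 (SE 0.07, adjusted p = 0.324 in limma). TIMM8B (chromosome 11) gave 257, 256 and 312 against 190, 265 and 212. Stau1 IP 2 lay within the control range, and the difference went from -0.24 (SE 0.23, adjusted p = 0.862 in limma) to -0.60 (SE 0.07, adjusted p = 0.0341) without the arrays numbered 2. TIMM13, the partner of TIMM8A, was at background. The median of the 5 was -0.24 by the labels and -0.50 without those arrays.

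Among the 17 metabolite carriers, 4 were higher past an adjusted p of 0.05 without the arrays numbered 2. In that fit 3.17% of all targets were higher, or 10.9% of those with a mean of at least 8. The 4 were the ornithine carrier SLC25A15, the glutamate carrier SLC25A22, the dicarboxylate carrier SLC25A10 and the basic amino acid carrier SLC25A29. None was lower, against 2.25% of all targets, and by the labels 0 passed in either direction. In this group 15 transcripts were detected on at least 3 arrays, and 11 of 17 were above 0 by the labels, with a median of 0.05. SLC25A15 (chromosome 13) had 452 and 548 in control IPs 1 and 3, against 3214 and 3412 in Stau1 IPs 1 and 3. Control IP 2 stood at 2259 and Stau1 IP 2 at 445, each outside the range of its own group's other arrays and towards the other group. The log2 difference of 1.01 (SE 0.85, adjusted p = 0.842 in limma) became 2.40 (SE 0.07, adjusted p = 0.00824) without these 2 arrays.

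SLC25A22 (chromosome 11), a glutamate carrier, showed the same arrangement with a smaller range. It gave 1012, 2072 and 1372 in the control IP and 2423, 1401 and 2862 in the Stau1 IP. Leaving out the arrays numbered 2 moved the log2 difference from 0.53 (SE 0.27, adjusted p = 0.676 in limma) to 0.95 (SE 0.13, adjusted p = 0.0389). SLC25A10 (chromosome 17), the dicarboxylate carrier, gave 1415, 2356 and 1636 against 2629, 2133 and 3153. Here Stau1 IP 2 lay between control IP 3 and control IP 2 in signal and above every control after normalization. The log2 difference was 0.51 (SE 0.15, adjusted p = 0.404 in limma) and 0.74 (SE 0.07, adjusted p = 0.0220) without the arrays numbered 2.

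For 3 carriers of this group the Stau1 IP arrays lay above the controls in every array, number 2 included, in the deposited signal as well as after normalization. SLC25A29 (chromosome 14), which carries basic amino acids, gave 206, 290 and 218 in the control IP and 369, 310 and 377 in the Stau1 IP. Its log2 difference was 0.49 (SE 0.07, adjusted p = 0.166 in limma) by the labels and 0.48 (SE 0.04, adjusted p = 0.0202) without the arrays numbered 2. The 2 fits thus gave nearly the same size for this gene. SLC25A1 (chromosome 22), the citrate carrier that feeds cytosolic lipid synthesis, gave 3626, 4086 and 4486 against 5145, 7333 and 5691, with Stau1 IP 2 the highest, and differed by 0.54 (SE 0.14, adjusted p = 0.360 in limma). SLC25A39 (chromosome 17), a glutathione carrier, gave 11686, 13868 and 12696 against 14083, 16746 and 15523 and differed by 0.33 (SE 0.06, adjusted p = 0.212 in limma). The margin between SLC25A39 in control IP 2 and Stau1 IP 1 was small in signal.

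SLC25A3 (chromosome 12), the phosphate carrier needed for ATP synthesis, gave 5282, 6419 and 4736 in the control IP and 5753, 3757 and 6719 in the Stau1 IP. The groups overlapped and the lowest array was Stau1 IP 2. Its log2 difference was -0.03 (95% interval -0.56 to 0.50) by the labels and 0.27 (0.08 to 0.46, adjusted p = 0.149 in limma) without the arrays numbered 2. SLC25A13 (chromosome 7), the aspartate/glutamate carrier citrin, gave 1031, 1381 and 1526 against 1261, 638 and 1198. It was the carrier with the lowest value in this group, -0.37 (SE 0.20, adjusted p = 0.717 in limma), with Stau1 IP 2 the lowest array. Its isoform SLC25A12 differed by -0.10 (95% interval -0.34 to 0.14), and the acylcarnitine carrier SLC25A20 by -0.08 (-0.24 to 0.08).

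Of the 15 nucleotide and cofactor carriers, 10 were detected on at least 3 arrays. Without the arrays numbered 2, 5 of the 15 were higher past an adjusted p of 0.05 and 0 lower, against 3.17% and 2.25% of all targets. Among targets with a mean of at least 8 these shares were 10.9% and 8.97%. By the labels 0 passed. The 5 were SLC25A5, SLC25A17, SLC25A25, SLC25A26 and SLC25A42. SLC25A42 (chromosome 19), a mitochondrial carrier of coenzyme A, gave 491, 1201 and 716 in the control IP and 1397, 500 and 1531 in the Stau1 IP. SLC25A17 (chromosome 22), a peroxisomal carrier of cofactors, gave 455, 894 and 525 against 955, 319 and 921. In both, Stau1 IP 2 was near or below the lower controls and control IP 2 lay towards Stau1 IP arrays 1 and 3. Without the arrays numbered 2 the log2 difference of SLC25A42 went from 0.41 (SE 0.38, adjusted p = 0.861 in limma) to 1.00 (SE 0.15, adjusted p = 0.0470). For SLC25A17 it went from 0.13 (SE 0.33, adjusted p = 0.960 in limma) to 0.64 (SE 0.08, adjusted p = 0.0342).

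SLC25A26 (chromosome 3), which brings S-adenosylmethionine into the matrix, gave 223, 337 and 218 in the control IP and 506, 230 and 475 in the Stau1 IP. Stau1 IP arrays 1 and 3 were the highest and Stau1 IP 2 lay among the controls. Its log2 difference was 0.49 (SE 0.19, adjusted p = 0.536 in limma) by the labels and 0.77 (SE 0.08, adjusted p = 0.0239) without the arrays numbered 2. SLC25A25 (chromosome 9), an ATP-Mg/phosphate carrier, differed by 0.43 (SE 0.14, adjusted p = 0.461 in limma) and 0.63 (SE 0.03, adjusted p = 0.0115), but counted as detected on 3 arrays. Its close relative SLC25A23 (chromosome 19) differed by 0.03 (95% interval -0.59 to 0.66).

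The ADP/ATP carriers exchange matrix ATP for cytosolic ADP. SLC25A5 (chromosome X), the form of growing cells, gave 24197, 27559 and 23019 in the control IP and 25312, 24412 and 30443 in the Stau1 IP. The groups overlapped, and the log2 difference was 0.21 (SE 0.13, adjusted p = 0.769 in limma) by the labels and 0.39 (SE 0.05, adjusted p = 0.0390) without the arrays numbered 2. SLC25A4 (chromosome 4), the heart and muscle form, gave 1691, 2172 and 1430 against 2596, 1437 and 2571, with log2 differences of 0.26 (SE 0.21, adjusted p = 0.835 in limma) and 0.56 (SE 0.12, adjusted p = 0.106). The ADP/ATP carriers are alike in sequence, and cross-hybridization between their probes was not tested.

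The last group holds 10 transcripts, the mitoferrins that import iron, carriers like the uncoupling proteins, and carriers whose substrates are less settled. Their log2 differences ran from -0.14 to 0.29 by the labels, with a median of 0.03. SLC25A43 (chromosome X) gave 448, 656 and 361 in the control IP and 791, 235 and 874 in the Stau1 IP, with Stau1 IP 2 the lowest of all. Its log2 difference was 0.18 (SE 0.38, adjusted p = 0.949 in limma) and 0.71 (SE 0.12, adjusted p = 0.0680) without the arrays numbered 2. The mitoferrins differed in sign without those arrays, 0.37 (SE 0.17, adjusted p = 0.425 in limma) for SLC25A28 and -0.40 (SE 0.13, adjusted p = 0.259 in limma) for SLC25A37, and the difference between them was not tested. SLC25A35 had 163, 214 and 188 against 235, 232 and 245, all Stau1 IP arrays above the controls, and differed by 0.29 (SE 0.09, adjusted p = 0.456 in limma). SLC25A30, like an uncoupling protein, was detected on 2 control IP arrays and no Stau1 IP array, and its log2 difference was -0.05 (95% interval -0.16 to 0.06).

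**Figure D3:**
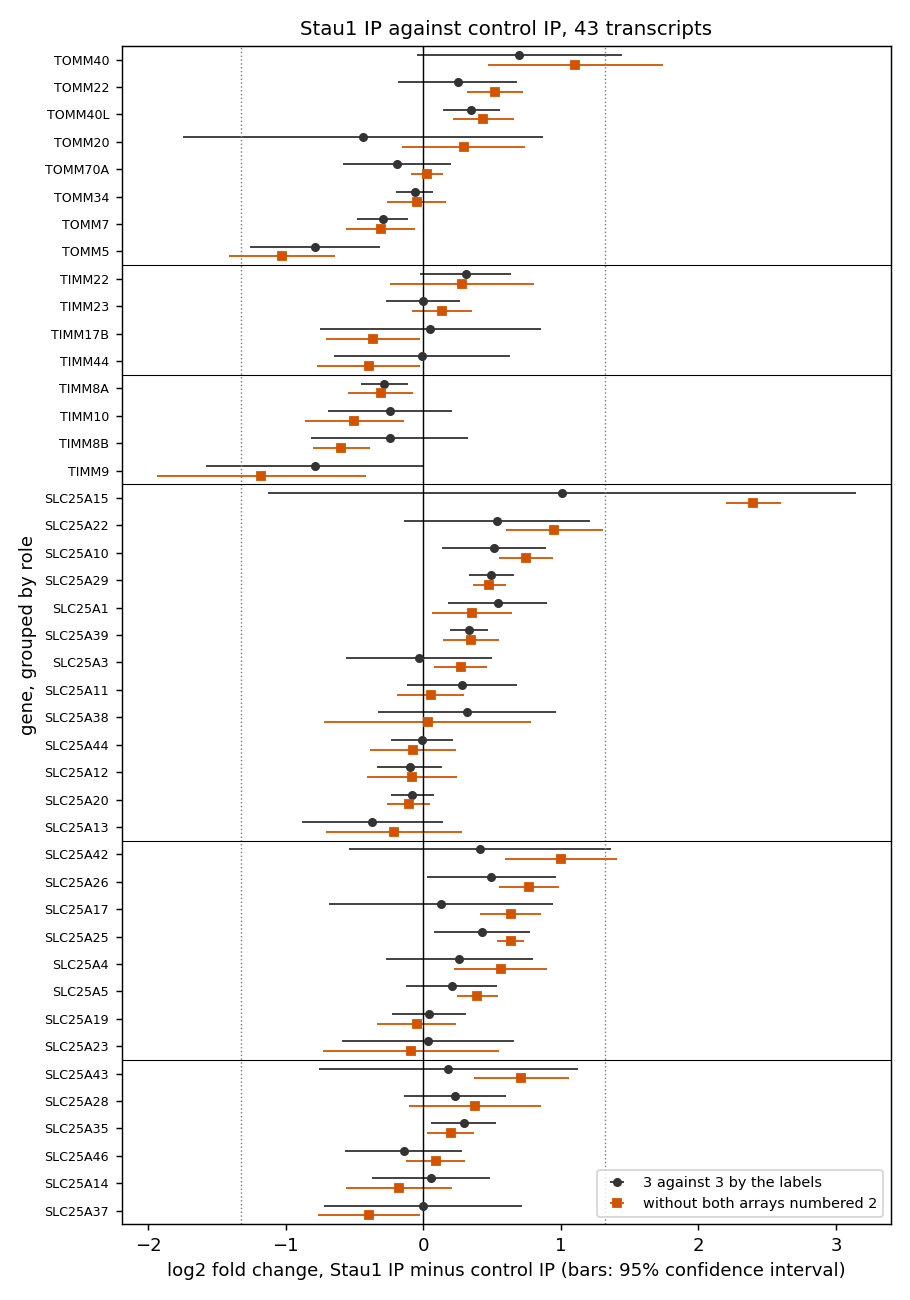
Log2 fold change (Stau1 IP minus control IP, with 95% confidence intervals) of the 43 transcripts with a mean of at least 8, by the labels with 3 arrays per group (black circles) and without both arrays numbered 2 (orange squares). Dotted lines mark 2.5-fold. Only the square of SLC25A15, at 2.40, lies beyond a dotted line, and the interval of TOMM5 lies below 0 in both fits.

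Other genes of mitochondrial import and carrier function that the symbols leave out were listed as a comparison, and 28 of them were on the array, 22 of these detected on at least 3 arrays. None passed the 2.5-fold rule, by the labels or without the arrays numbered 2, and the lowest adjusted p by the labels was 0.315. At an unadjusted p under 0.05, FXC1 (now TIMM10B, a small TIM bound to TIM22), the mitochondrial intermediate peptidase MIPEP, the inner membrane insertase OXA1L and the uncoupling protein UCP2 were higher, 4 of 28 in all, against the 3.9% of all targets given above. GRPEL1, the nucleotide exchange factor of the import motor, the matrix co-chaperonin HSPE1, the carrier family member MCART6 and MTX2, of the outer membrane sorting machinery, were lower, also 4 of 28, against 5.02%. Among the 19 with a mean of at least 8, 4 were higher, against 10.7% of targets as bright, and 3 were lower, against 13.3%. MTX2 counted as detected on 0 of 6 arrays by its deposited detection p, 0.081 to 0.134, although its signals were 573 to 1084. The median of the 28 was -0.09, with 9 above 0 (32.1%).

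UCP2 (chromosome 11) gave 295, 650 and 425 in the control IP and 971, 442 and 1055 in the Stau1 IP. Its log2 difference was 0.73 (SE 0.27, adjusted p = 0.519 in limma) and 1.14 (SE 0.14, adjusted p = 0.0335) without the arrays numbered 2, with Stau1 IP 2 again among the controls. CHCHD4 (chromosome 3), the oxidoreductase that traps small TIMs in the intermembrane space, gave 4032, 3499 and 4170 against 2499, 3727 and 2620. Its difference was -0.44 (SE 0.21, adjusted p = 0.646 in limma) by the labels and -0.77 (SE 0.04, adjusted p = 0.0119) without them. GRPEL1 was also past the adjusted p without those arrays, at -0.69 (SE 0.09, adjusted p = 0.0352 in limma), and MTX3, of the outer membrane sorting machinery, at 0.36 (SE 0.04, adjusted p = 0.0245 in limma). In that fit 2 of the 28 were thus higher, against 3.17% of all targets, and 2 lower, against 2.25%. Among the 19 with a mean of at least 8, 1 was higher, against 10.9% of targets as bright, and 2 were lower, against 8.97%. The matrix chaperones HSPA9 and HSPD1 differed by -0.13 and -0.28 by the labels, with adjusted p-values of 0.876 and 0.759 in limma. Without the arrays numbered 2 they differed by 0.03 and -0.07, with adjusted p-values of 0.951 and 0.778 in limma.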

How the data were processed

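Each of 3 control IPs and 3 Stau1 IPs was hybridized to 1 Illumina array. BeadStudio signal intensities were deposited for 37879 targets per array, per the file header without background subtraction or normalization, the probes of a target already combined, with the bead standard error, bead number and a detection p-value from the authors. The genome build of the probes was not given in the sources used here. From these intensities, the study's normalization was rebuilt with limma 3.58.1 and mgcv 1.9.3 under R 4.3.3. The negative-control median was taken from the 200 targets with detection p nearest 0.5 and subtracted. A variance stabilizing transformation used the bead SD, with values close to log2 of the signal plus 117 to 160, and a robust spline set each array to control IP 2. Log2 differences therefore understate changes of dim targets. The number of arrays limits the precision. The groups were compared with lmFit and eBayes over all targets, with Benjamini-Hochberg adjustment over 37879. Figures used Python 3.11.15 and matplotlib 3.10.9. The code was tested on simulated data.

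Members, lists and alternatives were chosen with earlier results of these data known. The genes followed through every alternative were the 10 members with the largest absolute difference by the labels, the 10 with the largest on arrays 1 and 3, both among members detected on at least 3 arrays, a list of core members, and STAU1. SLC25A6, on that list, was not analysed here. Other members in the text were chosen after their values were seen. Of the 61 symbols, 60 are current in RefSeq. Alternatives were other transformations, normalizations, filters and tests, a replicate block, and leaving out arrays. Genome coordinates were not used here.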

Additional observations from a re-analysis of the deposited data

How the results depend on the processing

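The arrays used decided most counts. Without both arrays numbered 2, the rebuilt transformation gave 1 member called higher at 2.5-fold, 10 higher and 2 lower past an adjusted p of 0.05, and 25 above and 14 below without overlap. On the same 4 arrays, in settings chosen after seeing the data, neqc gave 2 higher and 1 lower at 2.5-fold, 2 higher past an adjusted p, and 23 above and 15 below, and shifted log2 values gave 1 higher and 1 lower, 10 and 3 past an adjusted p, 26 above and 14 below, and a median of 0.12. Each called 1 pathway gene. Leaving out single arrays gave 0 to 1 higher at 2.5-fold, 9 to 22 above and 6 to 11 below, the upper ends without Stau1 IP 2. Over all targets the share above was 6.67% by the labels and 22.2% without the arrays numbered 2, and the share below 7.79% and 24%. These shares were not taken for the other settings, so the rise of the counts is not a result about the members. Median centring gave 5 above. With no normalization between arrays, 5 lay above and 2 below, and the median was 0.11. There 1 higher and 2 lower passed an adjusted p (SLC25A15, TIMM9 and TOMM5). The SE in that setting was 0.214 for both SLC25A15 and TIMM9, against 0.85 and 0.32 in the main fit. Passing there therefore does not reflect the spread of the single gene between arrays.

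Signs turned for SLC25A3 (0.27, neqc 0.32, shifted log2 0.28), STAU1 (0.0622, 0.0575, 0.0737), TIMM23 (0.14, 0.15, 0.15), TOMM20 (0.29, 0.39, 0.31) and TOMM70A (0.0258, 0.010, 0.0358) without the arrays numbered 2, for SLC25A5 under median centring (-0.0119), and for TIMM23 (0.0214) and TIMM44 (0.0419) with no normalization. Leaving out single arrays gave -0.0802 to 0.46 for SLC25A17, -0.16 to 0.20 for SLC25A3, -0.0258 to 0.59 for SLC25A43, -0.24 to 0.0224 for STAU1, -0.0266 to 0.0775 for TIMM13, -0.090 to 0.0995 for TIMM23, -0.24 to 0.17 for TIMM44 and -0.76 to 0.14 for TOMM20. The cause was not tested. Of 466 recomputed values of 26 genes, 408 kept direction and side of the threshold, 25 newly passed it and 33 turned sign. Between arrays of the same replicate number, deviations from the labelled group means correlated at -0.45, -0.77 and -0.38. Those means include the arrays numbered 2, so these values cannot tell whether the replicates were paired. With the replicate block 0 members were called.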
